A study of Mus musculus with 12 samples.

Results

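Nrf2, the product of Nfe2l2, its inhibitor Keap1 and 8 genes that Nrf2 is known to activate were followed across the small intestines of fasted and fed PPARα-null and wild-type mice. The genes were Nfe2l2, Keap1, Gclc, Gclm, Gsr, Txnrd1, Gpx2, Nqo1, Ephx1 and Hmox1. Their members on the array are all probe sets that the probe annotation assigns to 1 of these symbols and to no other, which gave 15 of 22690 probe sets and 10 of 12394 genes. The group was selected on measured values of these arrays, namely the low Nfe2l2 signal in fasted PPARα-null mice. Contrasts that hold those arrays are therefore described with values, standard errors and counts, and without a p-value for a member.

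The 4 groups of 3 arrays each were PPARα-null mice fasted for 24 h, wild-type mice fasted for 24 h, PPARα-null mice that were fed, and wild-type mice that were fed. All were male, 14 weeks old and pure-bred, the PPARα-null mice being 129S4/SvJae and the wild-type mice 129S1/SvImJ, so that the missing receptor and the substrain cannot be told apart. The labels and the methods name different diets. RNA came from the full length of the small intestine and was hybridised to 1-colour mouse 430A arrays. The sources used here do not give whether an array holds 1 mouse or a pool, and p-values then measure only the spread between these samples. Ppara, the gene of the deleted receptor, had intensities of 13.2, 11.7 and 10.96 in fasted PPARα-null and 58.7, 48.1 and 30.8 in fasted wild-type arrays, and 6.84 to 7.50 in fed PPARα-null against 19.9 to 35.9 in fed wild-type arrays. The genotypes did not overlap within either feeding state. One free-text label of the fasted wild-type samples names the knockout, while their titles and strain name the wild type, and the Ppara signal went with the titles.

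Nrf2 is a transcription factor that Keap1 holds in the cytosol and hands to a ubiquitin ligase for breakdown. Oxidants and electrophiles that modify Keap1 let Nrf2 accumulate, enter the nucleus, pair with small Maf proteins and bind antioxidant response elements. Its targets make and recycle glutathione, reduce thioredoxin and clear quinones, peroxides and epoxides, many of which enter the intestine with food. Much of this control acts on the protein, whereas the arrays measured mRNA.

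Nfe2l2 lies at chr2:75675513-75704663, Keap1 at chr9:21229730-21239332 and Gclc at chr9:77754535-77794489 in the RefSeq annotation of GRCm38.p6. RefSeq promoter windows, from 250 bases before to 50 bases after an annotated start, were at hand for 7 of the 10 genes in 9 windows. They were searched on both strands for the core of the antioxidant response element, TGACNNNGC, and for the AP-1 site TGANTCA. The core was found in 3 of the 9 windows, 1 each of Nfe2l2, Gclm and Txnrd1, and in 12.4% of all 32851 windows of the table. The AP-1 site was found in 0 of the 9 windows and in 7.81% of all. The windows with a match are shown because they join the regulator to a pair of its targets, with the match in capitals, each read 5′ to 3′ along the gene's strand.
Nfe2l2, chr2:75704614-75704913, minus strand: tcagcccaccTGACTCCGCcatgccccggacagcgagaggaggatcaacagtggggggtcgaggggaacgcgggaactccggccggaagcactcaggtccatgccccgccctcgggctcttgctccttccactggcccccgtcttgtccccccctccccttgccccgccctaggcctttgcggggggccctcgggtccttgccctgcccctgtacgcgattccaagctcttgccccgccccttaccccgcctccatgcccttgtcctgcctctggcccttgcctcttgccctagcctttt
Gclm, chr3:122245307-122245606, plus strand: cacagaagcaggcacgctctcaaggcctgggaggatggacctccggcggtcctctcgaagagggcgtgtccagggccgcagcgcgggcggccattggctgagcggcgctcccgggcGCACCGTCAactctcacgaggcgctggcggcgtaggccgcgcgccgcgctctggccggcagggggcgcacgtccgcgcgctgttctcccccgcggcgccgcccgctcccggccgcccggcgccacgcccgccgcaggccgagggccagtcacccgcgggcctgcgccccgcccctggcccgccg
Txnrd1, chr10:82858956-82859255, plus strand: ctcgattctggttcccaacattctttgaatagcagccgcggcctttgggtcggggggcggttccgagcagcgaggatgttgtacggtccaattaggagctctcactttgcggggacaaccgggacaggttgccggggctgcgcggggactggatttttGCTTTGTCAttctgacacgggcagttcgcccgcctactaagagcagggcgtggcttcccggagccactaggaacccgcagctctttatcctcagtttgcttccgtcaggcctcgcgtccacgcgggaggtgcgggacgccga
The match began 240 bases before the start in Nfe2l2, on the gene's strand, and lay on the opposite strand in Gclm and Txnrd1, 134 and 92 bases before the start. No Keap1, Gpx2, Nqo1 or Ephx1 window held either motif. A match of these letters is a description of the sequence and no evidence of binding.

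Intensities are the GCRMA values as deposited, on a linear scale, and differences were tested on log2 values with limma, fitted to all 12 arrays. Fed arrays shared nearly the same distribution of values and fasted arrays another, as if the 2 sets had been normalized apart, so that fasting and processing set cannot be told apart in the changes upon fasting. Over the 9370 probe sets whose wild-type fed mean exceeded 20, the median fasted minus fed difference was −0.32 on the log2 scale, and each fasting change is given relative to this common shift unless "as deposited" stands beside it. A probe set was called where its unadjusted p was below 0.01 and its fold above 1.3. The shift cancels in genotype contrasts within a feeding state and in the contrast of both fasting changes. Of the 15 probe sets, 12 passed the level filter in each contrast, and these represent 9 genes. Hmox1, the second Keap1 and the third Txnrd1 probe set did not pass.

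The tissue was intestinal by its markers, since 9 of 9 epithelial marker genes matched were over 20 in every group, with a summed intensity of 52379 to 62526 over the 12 arrays. The 13 matched markers of the exocrine pancreas summed to 27621, 648 and 28629 in fasted PPARα-null and to 23341, 18833 and 11471 in fasted wild-type arrays, against 732 to 1275 in fed PPARα-null and 661 to 2219 in fed wild-type arrays. Pancreas transcripts were thus high in 5 of the 6 fasted arrays, although the methods state that this tissue was removed, and low in fasted PPARα-null replicate 2. Immune markers, 8 genes matched, summed to 971 to 1069 in fasted PPARα-null and 1456 to 1728 in fasted wild-type arrays, and to 2115 to 2280 in fed PPARα-null against 2364 to 2621 in fed wild-type arrays. Smooth muscle markers, 8 of 8 genes, summed to 2569 to 4053 in fasted and 5249 to 6591 in fed arrays. Markers of Paneth, goblet and crypt cells, 9 genes matched, summed to 34013 to 34782 in fasted PPARα-null and 32770 to 37424 in fasted wild-type arrays, and to 38079 to 42382 in fed PPARα-null against 40420 to 43067 in fed wild-type arrays. Of 8 tested, 4 were called lower in fasted PPARα-null than in fasted wild-type mice, beside 16.8% of all probe sets. Upon fasting in PPARα-null mice 3 were lower, beside 23.6%, and 3 in the difference of the changes, beside 14.3%. Immune markers had 4, 4 and 3 of 6 lower in these contrasts, and smooth muscle markers 0, 1 and 0 of 8. Upon fasting in wild-type mice 5 of 8 smooth muscle and 3 of 6 immune markers were lower, beside 7.43%. The ratio of the 3′ to the 5′ probe set, a measure of RNA integrity, was 1.68 to 1.77 in fasted PPARα-null and 1.77 to 1.89 in fasted wild-type arrays for actin, against 1.60 to 1.74 in fed PPARα-null and 1.57 to 1.71 in fed wild-type arrays. For Gapdh it was 1.18 to 1.26 in fasted PPARα-null and 1.22 to 1.25 in fasted wild-type arrays, against 1.14 to 1.15 in fed PPARα-null and 1.10 to 1.18 in fed wild-type arrays, so that every fasted array lay above every fed one, if narrowly. An 18S rRNA control probe set read 1616 in wild-type fed replicate 2 and 10.4 to 33.7 in the other 11 arrays. The part of these differences in the results was not tested, and in whole tissue fewer cells of a type and less RNA per cell cannot be told apart.

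Nfe2l2 lost most of its signal in fasted PPARα-null mice and in no other group. Its 1 probe set, 1416543_at, read 50.3, 60.0 and 30.2 in fasted PPARα-null arrays and 1005, 1240 and 1337 in fasted wild-type arrays. In fed mice it read 1618, 1523 and 1518 in PPARα-null and 1425, 1560 and 1611 in wild-type arrays. The 3 fasted PPARα-null arrays lay far below the other 9, the fasted wild-type arrays lay somewhat below the fed ones, and the fed genotypes overlapped. Group means were 46.8 ± 15.2 in fasted PPARα-null, 1194 ± 171 in fasted wild-type, 1553 ± 56.4 in fed PPARα-null and 1532 ± 96.3 in fed wild-type mice (SD, n = 3). The fed groups ranked highest and did not differ beyond their spread, fasted wild-type mice followed, and fasted PPARα-null mice came last.

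Between the fasted genotypes the Nfe2l2 difference was −4.72 (standard error 0.20) on the log2 scale, a 26.3-fold lower signal in PPARα-null mice. Upon fasting the PPARα-null mice changed by −4.79 and the wild-type mice by −0.05 (standard error 0.20 each), and the difference between these changes was −4.74 (standard error 0.28). Of the 9370 probe sets with a fasting change in PPARα-null mice, Nfe2l2 had the lowest value, and between fasted genotypes it was the second lowest of 9217. Only 2 of these 9217 fell over 16-fold, the other being a probe set without a single gene symbol at −6.07. These ranks describe the values that chose the gene. The same probe set read as high in fed PPARα-null as in fed wild-type mice, with a difference of 0.02 (standard error 0.20, adjusted p = 0.983 by limma). In wild-type mice the fasting change of −0.05 did not pass either (adjusted p = 0.866), and as deposited it was −0.37, with fasted and fed arrays that did not overlap.

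Nfe2l2 read 60.0 in fasted PPARα-null replicate 2, the array with little pancreas signal, and 50.3 and 30.2 in the pair with much. The part of pancreas signal in these readings was not tested. With 1 array left out at a time the difference between fasted genotypes was −4.93 to −4.43, a range that describes the values by which the gene was chosen.

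**Figure D1:**
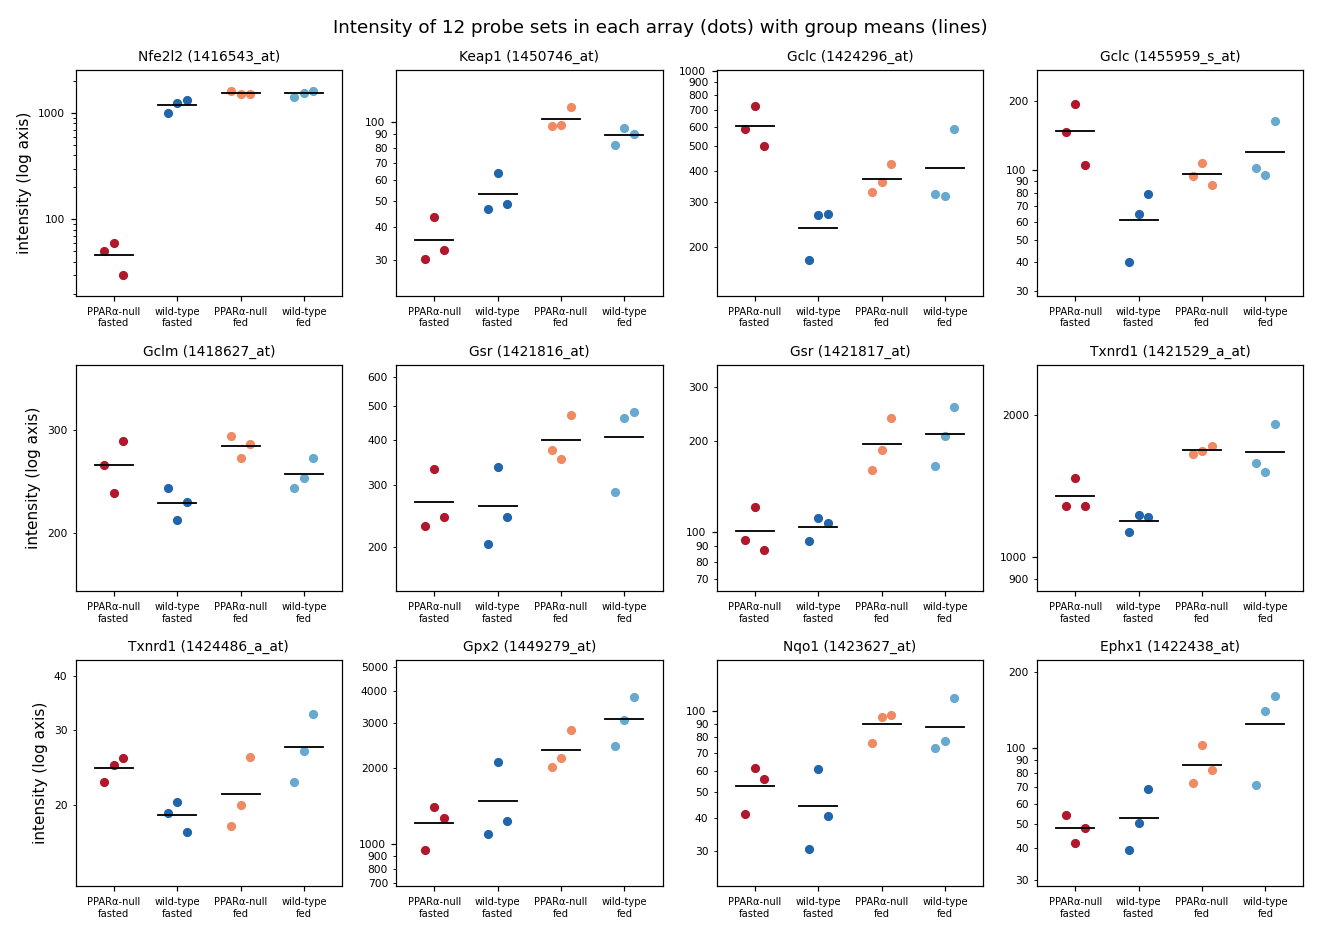
Intensity (log axis) of the 12 probe sets that passed the level filter, in each array (dots), with the group mean (line), for fasted PPARα-null, fasted wild-type, fed PPARα-null and fed wild-type mice. Nfe2l2 reads 30.2 to 60.0 in fasted PPARα-null arrays and over 1000 in all others, while both Gclc probe sets are highest on average in the fasted PPARα-null group.

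Keap1, the adaptor that targets Nrf2 for breakdown, was also lowest in fasted PPARα-null mice, by a smaller margin. Probe set 1450746_at read 30.3, 43.6 and 32.8 in fasted PPARα-null and 46.8, 64.2 and 48.8 in fasted wild-type arrays. In fed mice it read 96.9, 97.4 and 114 in PPARα-null and 81.8, 95.0 and 90.3 in wild-type arrays. All fasted arrays lay below all fed ones, and within each feeding state the genotypes did not overlap, with the PPARα-null mice lower when fasted and higher when fed. The difference between fasted genotypes was −0.59 (standard error 0.15) and that between the fasting changes −0.79 (standard error 0.21). Without fasted PPARα-null replicate 1, or without fasted wild-type replicate 2, the call between fasted genotypes ended. In wild-type mice fasting changed it by −0.44 (standard error 0.15, adjusted p = 0.0485 by limma), which missed the call at an unadjusted p of 0.0113 and was called as deposited at −0.75. The fed genotype difference was 0.20 (standard error 0.15, adjusted p = 0.655). The other Keap1 probe set stayed between 6.57 and 12.7 in the 12 arrays, below the level filter.

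Gclc, the catalytic subunit of glutamate-cysteine ligase and thus the rate-limiting enzyme of glutathione synthesis, stood higher in fasted PPARα-null than in fasted wild-type mice, in the group where Nfe2l2 was lowest. Probe set 1424296_at read 587, 724 and 503 in fasted PPARα-null and 177, 266 and 270 in fasted wild-type arrays. Fed mice had 328, 363 and 426 in PPARα-null and 324, 319 and 586 in wild-type arrays. The fasted genotypes were fully apart, while the fed genotypes overlapped and 1 fed wild-type array reached the range of the fasted PPARα-null arrays. The second probe set, 1455959_s_at, read 146, 194 and 106 in fasted PPARα-null against 40.1, 64.6 and 78.6 in fasted wild-type arrays, and 94.2, 107 and 86.5 in fed PPARα-null against 103, 95.2 and 163 in fed wild-type arrays. The fasted genotypes were again apart and the fed ones overlapped.

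Between fasted genotypes the 2 Gclc probe sets differed by 1.36 (standard error 0.23) and 1.29 (standard error 0.27) on the log2 scale, or 2.56-fold and 2.45-fold. Their fasting change was 1.01 and 0.91 in PPARα-null mice and −0.43 and −0.67 in wild-type mice. The difference between these changes was 1.44 (standard error 0.33) and 1.58 (standard error 0.38). With an array left out the difference between fasted genotypes ranged from 1.16 to 1.48 and from 1.02 to 1.52. The change upon fasting in PPARα-null mice was called relative to the shift and not as deposited, where it was 0.69 and 0.59, and for 1455959_s_at the call also ended in 4 of the 12 fits with an array left out, those without fasted PPARα-null replicate 1 or 2 or without fed PPARα-null replicate 1 or 3. In wild-type mice neither change passed (adjusted p = 0.198 and 0.0879 by limma), although both were called lower as deposited, at −0.75 and −0.99. The array with the least pancreas signal, fasted PPARα-null replicate 2, had the highest reading of both probe sets, and a link between these was not tested.

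Gclm, the modifier subunit of the same ligase, had a much flatter profile than its catalytic partner. It read 261, 234 and 287 in fasted PPARα-null and 239, 210 and 226 in fasted wild-type arrays, and 293, 268 and 284 in fed PPARα-null against 239, 248.6 and 269 in fed wild-type arrays. Within both feeding states the genotypes overlapped. It differed by 0.21 (standard error 0.09) between fasted genotypes and by 0.05 (standard error 0.13) between the fasting changes, and was called in none of the 5 contrasts. In wild-type mice its fasting change was 0.15 (adjusted p = 0.262 by limma), which turned to −0.16 as deposited.

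Gsr, the reductase that regenerates glutathione, was lower in fasted than in fed mice of both genotypes alike. Its probe set 1421817_at read 94.0, 121 and 87.7 in fasted PPARα-null and 93.4, 111 and 107 in fasted wild-type arrays, against 160, 186 and 237 in fed PPARα-null and 165, 206 and 259 in fed wild-type arrays. Every fasted array lay below every fed one, and the genotypes overlapped throughout. The fall in wild-type mice was −0.68 (standard error 0.18, adjusted p = 0.0170 by limma), and the change in PPARα-null mice was −0.63 (standard error 0.18). The wild-type call ended without fasted wild-type replicate 1, at the lower end of its group, and without fed wild-type replicate 3, at the upper end of its own. The other probe set, 1421816_at, spanned 204 to 337 in the 6 fasted and 286 to 480 in the 6 fed arrays and was called in none of the contrasts, with a wild-type fasting change of −0.33 (standard error 0.22, adjusted p = 0.317).

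Txnrd1, the cytosolic reductase of thioredoxin, gave 1 bright and 2 dim probe sets. The bright one, 1421529_a_at, read 1284, 1470 and 1287 in fasted PPARα-null and 1131, 1227 and 1216 in fasted wild-type arrays, and 1655, 1679 and 1724 in fed PPARα-null against 1582, 1515 and 1918 in fed wild-type arrays. The fasted genotypes did not overlap but lay close, with a difference of 0.18 (standard error 0.10), and no contrast was called, although the wild-type fasting change of −0.17 was called lower as deposited, at −0.48. Probe set 1424486_a_at read 22.6, 24.8 and 25.7 in fasted PPARα-null and 19.1, 20.3 and 17.3 in fasted wild-type arrays, and 17.9 to 25.9 in fed PPARα-null against 22.7 to 32.5 in fed wild-type arrays. Its difference between the fasting changes, 0.73 (standard error 0.21), was called, at readings near the level filter, and the call ended in 5 of the 12 fits with an array left out. The third, 1424487_x_at, stayed between 7.27 and 10.2 in all arrays.

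Gpx2, the glutathione peroxidase of the gut epithelium, and Ephx1, the microsomal epoxide hydrolase, fell upon fasting in wild-type mice. Gpx2 read 1099, 2098 and 1236 in fasted and 2426, 3082 and 3808 in fed wild-type arrays. As deposited these did not overlap, and relative to the shift they did. The change was −0.79 (standard error 0.24, adjusted p = 0.0313 by limma). In PPARα-null mice Gpx2 read 948, 1404 and 1268 when fasted and 2017, 2187 and 2818 when fed, without overlap on either scale. This change of −0.64 was not called, and as deposited it was called at −0.96. The difference between the changes was 0.15 (standard error 0.34).

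Ephx1 read 39.4, 50.3 and 69.1 in fasted and 71.6, 141 and 160 in fed wild-type arrays, a change of −0.87 (standard error 0.27, adjusted p = 0.0350 by limma). Its highest fasted and lowest fed wild-type arrays nearly met as deposited, and relative to the shift the groups overlapped. In PPARα-null mice Ephx1 read 54.5, 42.0 and 48.4 when fasted and 72.7, 102 and 82.0 when fed, without overlap on either scale. This change of −0.51 (standard error 0.27) was not called, and as deposited it was called at −0.82. Fitting only the wild-type arrays ended the wild-type calls of Gpx2 and Ephx1. Gpx2 also lost its call with trended and robust variances, where Nqo1 gained one. Gpx2 lost its call in 4 and Ephx1 in 5 of the 12 fits with an array left out. Both calls, with that of Gsr, ended with pancreas signal as a covariate. In wild-type mice that signal was 11471 to 23341 in fasted and 661 to 2219 in fed arrays. The covariate thus ran with fasting, and the lost calls cannot tell pancreas signal from fasting.

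Nqo1, the quinone reductase often used as a readout of Nrf2, was on average no lower in fasted PPARα-null than in fasted wild-type mice. It read 41.4, 61.2 and 55.7 in fasted PPARα-null and 30.7, 61.1 and 40.5 in fasted wild-type arrays, and 76.2, 95.5 and 96.8 in fed PPARα-null against 72.9, 77.7 and 112 in fed wild-type arrays. The genotypes overlapped in both feeding states. The difference between fasted genotypes was 0.30 (standard error 0.24) and that between the fasting changes 0.25 (standard error 0.33). In wild-type mice the fasting change was −0.71 (standard error 0.24, adjusted p = 0.0462 by limma), just outside the call at an unadjusted p of 0.0106. As deposited it was called at −1.02. In PPARα-null mice the fasting change of −0.46 (standard error 0.24) was not called, and as deposited it was called at −0.77. Fasted and fed PPARα-null arrays did not overlap on either scale. Hmox1, the inducible heme oxygenase, lay between 8.51 and 10.5 in all 12 arrays, below the level filter, so that no change could be read from it.

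**Figure D2:**
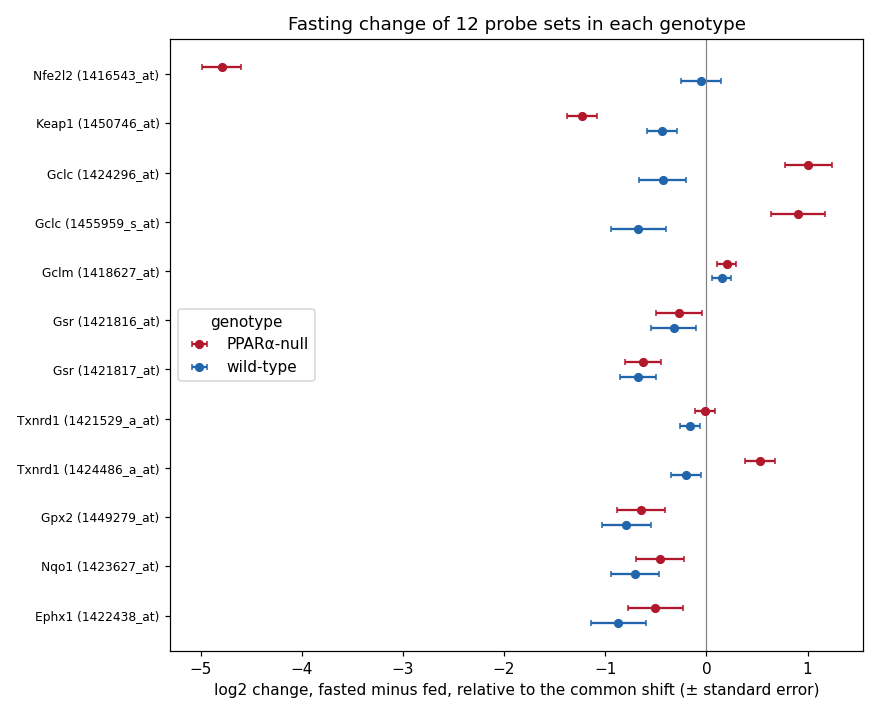
Log2 change upon fasting, relative to the common shift, with standard error, of the 12 probe sets in PPARα-null (upper point) and wild-type mice (lower point). Nfe2l2 stands at −4.79 against −0.05 and the Gclc probe sets at 1.01 and 0.91 against −0.43 and −0.67, while the points of Gclm and both Gsr probe sets nearly coincide.

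Counted over the members, fasting in wild-type mice called 0 of 12 probe sets higher and 3 lower (Gsr, Gpx2 and Ephx1), where 10% of all 9370 probe sets tested were called higher and 7.43% lower. The median of the 12 was −0.44 and that of all probe sets 0.03. As deposited the counts were 0 and 9. Counts as deposited, here and below, keep the shift in every fasting change, and no share over all probe sets stands beside them. Lower calls relative to the shift lean on single arrays. They were 0 without fasted wild-type replicate 1 or without fed wild-type replicate 3. They were 1 without fed wild-type replicate 2 and 5 without fasted PPARα-null replicate 1. Between fed PPARα-null and fed wild-type mice 0 members were called in either direction, against a background of 1% higher and 1.65% lower among 9560 probe sets. By limma 1 member had an unadjusted p under 0.05 there, Txnrd1 1424486_a_at at −0.36 (adjusted p = 0.375). Without fed wild-type replicate 1, 2 members were called lower in that contrast, Txnrd1 1424486_a_at and Ephx1, and without fed PPARα-null replicate 3 the Txnrd1 probe set alone.

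In the contrasts with the arrays that chose the group, counts are given beside their background and nothing is read from them. Fasting in PPARα-null mice called 3 members higher (both Gclc and 1 Txnrd1 probe set) and 3 lower (Nfe2l2, Keap1 and Gsr), beside 18.6% and 23.6% of 9370. As deposited, with the shift left in and no share of all probe sets beside them, the counts were 0 and 6. Between fasted PPARα-null and fasted wild-type mice 2 were higher (both Gclc) and 2 lower (Nfe2l2 and Keap1), beside 14% and 16.8% of 9217. The difference between the fasting changes was called where the adjusted p was below 0.05 and the fold above 1.3, with 3 members higher (both Gclc and 1 Txnrd1 probe set) and 2 lower (Nfe2l2 and Keap1), beside 9.03% and 14.3% of 9874. The 10 target probe sets that passed the filter had a median difference between fasted genotypes of 0.19, and 0 of them were called lower.

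**Figure D3:**
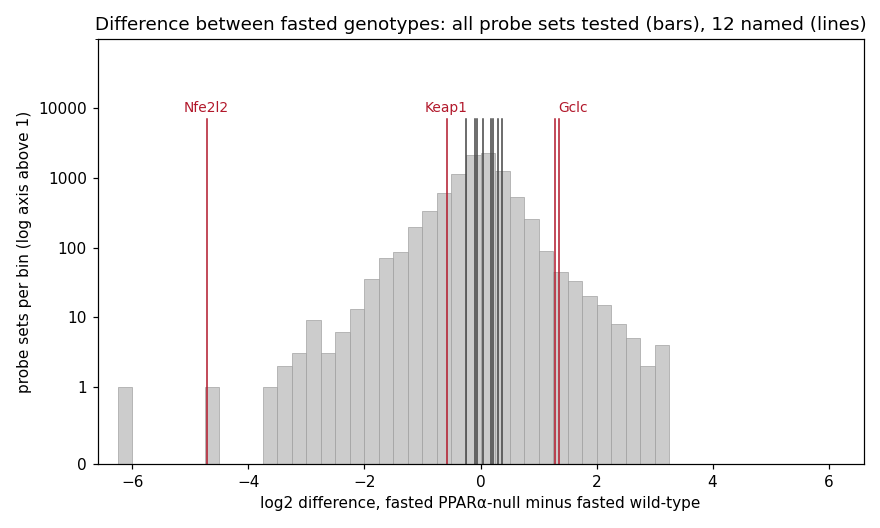
Number of probe sets per bin of log2 difference between fasted PPARα-null and fasted wild-type mice for all 9217 tested (bars, log axis above 1), with the 12 members as lines. Nfe2l2 lies at −4.72, away from the bulk, both Gclc probe sets lie at 1.36 and 1.29, and the unlabelled lines of the other targets lie between −0.25 and 0.37.

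Over the 12 arrays, after removal of the shift, the 6 genes most like Nfe2l2 by Pearson's r of log2 values were Fem1b (r = 0.996), Zfand5 (0.994), Trmt1l (0.990), Nat8f4 (0.990), Pura (0.990) and Rras2 (0.989). All 6 were low in the fasted PPARα-null arrays alone. Fem1b read 20.1, 21.3 and 17.7 in fasted PPARα-null and 76.4, 80.0 and 81.9 in fasted wild-type arrays, against 94.2 to 117 in fed PPARα-null and 97.4 to 103 in fed wild-type arrays. Zfand5 averaged 36.5 in fasted PPARα-null and 390 in fasted wild-type mice, and Pura, a nucleic acid binding protein, 171 and 534. The points share the array, and r here mainly sets 3 arrays against 9. Among the members r with Nfe2l2 was 0.84 for Keap1 1450746_at, −0.79 and −0.65 for the Gclc probe sets and −0.76 for Gclm. It was 0.58 for Gpx2, 0.28 and 0.56 for the Gsr probe sets, 0.47 for Ephx1 and 0.22 for Nqo1. The Txnrd1 probe sets that passed the filter had −0.16 and −0.59, so that targets lay on both sides. Of 9874 probe sets, 89.5% had a lower r than Keap1 and 12.8% a lower r than Gclc 1424296_at. All these r include the arrays that chose the gene.

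**Figure D4:**
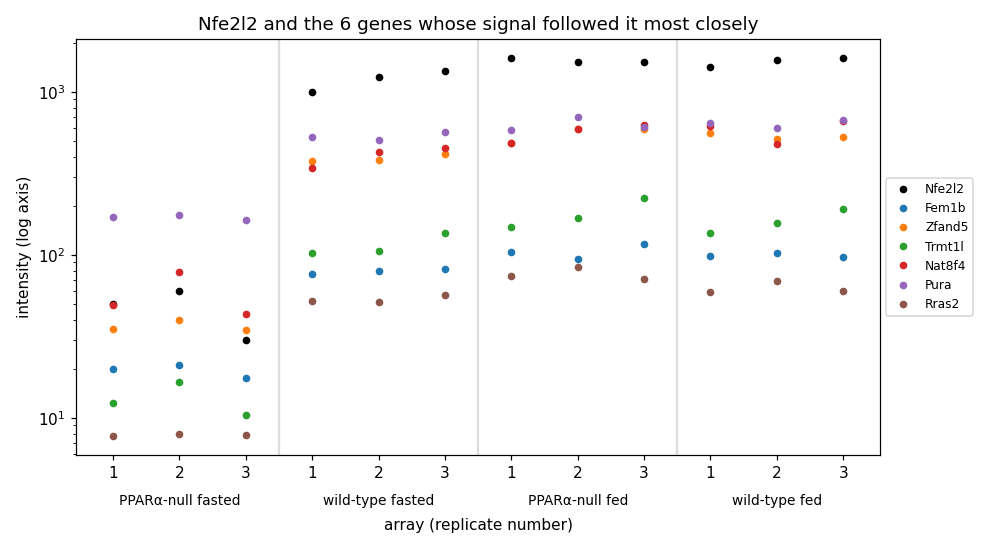
Intensity (log axis) in each of the 12 arrays of Nfe2l2 and the 6 genes whose log2 signal had the highest r with it (0.989 to 0.996), grouped as fasted PPARα-null, fasted wild-type, fed PPARα-null and fed wild-type. All 7 are low in the 3 fasted PPARα-null arrays, and none is in the other 9.

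Other genes of the pathway were taken from 8 lists, without the members, of 73 genes on 120 probe sets. In wild-type mice fasting called 6 of 86 tested probe sets higher and 18 lower, with a median of −0.07 against 0.03 over all probe sets and calls for 10% and 7.43% of all. As deposited, with the shift left in and no share of all probe sets beside them, the counts were 2 and 43. Of the 18 falls, 10 were glutathione S-transferases, which couple glutathione to electrophiles, with 1 higher and 10 lower of 17 and a median of −0.99. Gstm3 1427473_at averaged 27.6 in fasted and 110 in fed wild-type mice, a change of −1.65 (standard error 0.29, adjusted p = 0.00186 by limma), and Gstt1 averaged 101 and 277 (−1.13, adjusted p = 3.94e-05). With pancreas signal as a covariate 7 pathway probe sets were called higher and 3 lower, and of the 17 glutathione S-transferase probe sets 1 was called higher and 1 lower, with a median of −0.46. That covariate ran with fasting in wild-type mice, so that these counts cannot tell pancreas signal from fasting. Members of this family are close in sequence, so a probe set may read more than 1 of them. Srxn1, the sulfiredoxin that repairs peroxiredoxins, averaged 73.0 in fasted and 164 in fed wild-type mice on 1425351_at (−0.86, adjusted p = 0.000714), and Abcc3, an export pump for conjugates, 165 and 412 (−0.94, adjusted p = 0.00526). Against these, Hagh, a hydrolase of the glyoxalase system, rose by 0.75 on 1437519_x_at (adjusted p = 0.000633 by limma), the only Hagh probe set called. Ptgr1, a prostaglandin reductase, rose by 0.76 (adjusted p = 0.000915). Ces1g, a carboxylesterase, fell by 1.72 (adjusted p = 0.000145).

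In fed mice 0 of 87 pathway probe sets were higher and 4 lower in PPARα-null mice, on 3 genes, beside 1% and 1.65% of all probe sets. Me1, the malic enzyme that supplies NADPH, averaged 106 in fed PPARα-null and 472 in fed wild-type mice on 1416632_at (−2.16, standard error 0.27, adjusted p = 0.00128 by limma) and 75.7 and 505 on its second probe set. Idh1, which also yields NADPH, and Akr1b8, an aldo-keto reductase, were called at p under 0.01 with adjusted p = 0.117 and 0.237.

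Between fasted genotypes 11 of 82 pathway probe sets were higher and 8 lower in PPARα-null mice, beside 14% and 16.8% of all probe sets, so that the lists as a whole did not exceed the background. Of the 11, 7 were glutathione S-transferases, of 15 tested in that family. Of the 8, 3 were probe sets of Me1 (−2.88 and −2.15) and Idh1 (−0.41), which were also called lower in fed PPARα-null mice. Ugt2b5 averaged 121 in fasted PPARα-null and 290 in fasted wild-type mice (−1.20). The pathway counts lean on single arrays, being 5 higher and 10 lower without fasted PPARα-null replicate 2. Without fed wild-type replicate 1 they were 14 and 8. Gstm2 averaged 145 in fasted PPARα-null and 59.3 in fasted wild-type mice (1.29, standard error 0.18) and Gsta3 71.2 and 25.03 (1.58, standard error 0.32). Srxn1 on 1426875_s_at averaged 430 and 667 (−0.63, standard error 0.09). On 1425351_at it averaged 61.1 and 73.0 and on 1451680_at 279 and 342, and neither of these was called. Prdx2, a peroxiredoxin, averaged 468 and 668 (−0.51), Nqo2, the relative of Nqo1, 23.2 and 37.8 (−0.70), and Blvrb, a biliverdin reductase, 41.6 and 56.7 (−0.45). Of the regulators and partners, Sqstm1, which draws Keap1 into autophagy, averaged 714 in fasted PPARα-null and 529 in fasted wild-type mice (0.43, standard error 0.11), and Cul3, the scaffold of the Keap1 ligase, 626 and 478 on 1422794_at (0.39, standard error 0.08). Of the 20 probe sets of that list, 10 passed the filter upon fasting and PPARα-null mice had 1 of them higher and 2 lower. Cul3 was called in both directions, at 0.53 on 1422794_at and −0.50 on the dim 1450756_s_at, which averaged 10.7 in fasted and 18.8 in fed PPARα-null mice, and the other fall was Mafg, a small Maf partner of Nrf2, at −0.76.

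The fasting changes of the pathway lists in PPARα-null mice were called higher for 15 and lower for 18 of 86 probe sets, beside 18.6% and 23.6% of all. As deposited, with the shift left in and no share of all probe sets beside them, the counts were 4 and 33. The list of glutathione and peroxide enzymes held 9 of the 15 relative to the shift, and 2 of the 4 as deposited. Gpx4, the peroxidase of membrane lipid peroxides, averaged 436 in fasted and 280 in fed PPARα-null mice on 1456193_x_at (0.95, standard error 0.14), and 327 in fasted and 247 in fed wild-type mice (0.74). The difference between the fasting changes was called higher for 7 and lower for 5 of 87 probe sets, beside a background of 9.03% and 14.3%, and 6 of the 7 were glutathione S-transferases such as Gstm1 1448330_at (1.94, standard error 0.58), which averaged 1058 in fasted PPARα-null, 409 in fasted wild-type, 798 in fed PPARα-null and 1078 in fed wild-type mice. This higher count rests on single arrays, being 1 without fasted PPARα-null replicate 2 or without fed wild-type replicate 3, 2 without fed PPARα-null replicate 1 and 14 without fed wild-type replicate 1.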

How the data were processed

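Small intestinal RNA of 12 mouse samples, 3 in each of 4 groups, had been hybridised to 430A arrays. The intensity values analysed were deposited by the authors on a linear scale by GCRMA, of which the labels name version 2.20, a method that corrects background by probe sequence, equalises the array distributions and summarises the probes of each set. Values were taken to log2, and models with 1 mean per group were fitted to all 22690 probe sets with limma 3.58.1 in R 4.3.3 (lmFit and eBayes). The call rule, p under 0.01 and fold over 1.3, follows the study's methods. A mean over 20 was asked of wild-type fed arrays for fasting changes, of either group for genotype contrasts and of any group for the difference of changes. P-values were adjusted by Benjamini-Hochberg within each contrast over what passed. The number of arrays limits the precision. Members and lists were chosen with earlier results of these data known. Named are every member, Ppara, the genes most like Nfe2l2, and in each list up to 3 called rises and 3 called falls per contrast, of which only some are given here. The fit was tested on simulated data. Alternatives were other normalizations, level filters, variance models and call rules, a replicate block, only the groups compared, each array left out and, added after seeing the data, pancreas signal as a covariate.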

Additional observations from a re-analysis of the deposited data

Results flagged for a closer look

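Of the 12 member probe sets that passed the level filter, 5 met the call rule for the difference of the fasting changes. By the same rule 9.03% of all 9874 probe sets were called higher and 14.3% lower. On the log2 scale the PPARα-null change minus the wild-type change was −4.74 for Nfe2l2, −0.79 for Keap1 1450746_at, 1.44 and 1.58 for the Gclc probe sets and 0.73 for Txnrd1 1424486_a_at. These values include the arrays that chose the genes, so they describe the choice and are no test of it. Groups of 3 arrays are too small for a test of single outlying samples.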

How the results depend on the processing

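The 3 member calls for fasting in wild-type mice became 9 as deposited, 5 with quantile normalization, 5 with arrays centred on their medians, 5 by adjusted p, 1 in a fit of only the groups compared and 0 with pancreas signal as a covariate, chosen after seeing the data. The 24 pathway calls of that contrast (6 higher, 18 lower) became 45 as deposited (2 and 43) and 10 with the covariate (7 and 3). The balance of directions thus turned with the covariate, which ran with fasting in wild-type mice and cannot be told apart from it. Counts as deposited keep the shift, and no share of all probe sets stands beside them. The pathway calls for fasting in PPARα-null mice, 15 higher and 18 lower, were 4 and 33 as deposited. The 4 pathway calls between fed genotypes became 2 by adjusted p, and the 12 of the difference between fasting changes became 7 at a level over 100. No filter on level and trended, robust variances kept each total of both directions within 1.5 times. By direction, no filter on level gave 10 higher pathway calls instead of 6 for fasting in wild-type mice. In the difference between fasting changes it gave 3 higher instead of 7. With trended, robust variances Nqo1 took the place of Gpx2 among the 3 members called for fasting in wild-type mice.

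With an array left out, member calls ranged from 0 to 5 for fasting in wild-type mice, 0 to 2 between fed genotypes, 4 to 7 for fasting in PPARα-null mice, 3 to 4 between fasted genotypes and 4 to 5 for the difference. Pathway calls ranged from 16 to 31, 3 to 7, 28 to 34, 15 to 22 and 6 to 19 in the same order. Between fed genotypes small uncalled differences changed sign, with ranges of −0.031 to 0.058 for Nfe2l2, −0.23 to 0.20 for Gclc 1424296_at, −0.24 to 0.13 and −0.27 to 0.058 for the Gsr probe sets, −0.047 to 0.12 for Txnrd1 1421529_a_at and −0.071 to 0.24 for Nqo1. The wild-type fasting change of Nfe2l2 ranged from −0.14 to 0.068.

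Other changes of sign were also in uncalled differences. Centring turned the fed genotype difference to −0.024 for Nfe2l2 and −0.025 for Txnrd1 1421529_a_at, Gclm upon fasting in wild-type mice was −0.16 as deposited, and the covariate gave 0.42 for Nfe2l2 and 0.10 for Gsr 1421816_at in wild-type fasting and −0.0098 for Nfe2l2 between fed genotypes. The cause was not tested.

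Whether replicate numbers pair the samples was not settled. Of 18 same-numbered pairs 5 correlated over 0.1 (r −0.15 to 0.22), and pairs with different numbers were not compared. With the replicate number as a block the members called for fasting in wild-type mice were 5. The other totals of both directions stayed within 1.5 times, while higher pathway calls of the difference between fasting changes went from 7 to 11. The dim signals of Hmox1 and the third Txnrd1 probe set limit what can be read from them.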
